A study of Mus musculus with 12 samples.

Results

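The genes described here are 9 epithelial itch and alarm genes of mouse skin: Tslp, Crlf2, Osm, Osmr, Lifr, Artn, F2rl1, Trpv3 and Trpv4. They were taken by name from the 36400 genes of the deposited table, and all 9 were found and were expressed highly enough to be tested, among 21890 genes tested in all. RNA came from the dorsal skin of female BALB/c mice that were 6 weeks old at the start, with 3 libraries per group, collected on day 30. The control group received the acetone and olive oil vehicle on shaved skin. In the DNCB group, 2,4-dinitrochlorobenzene, a contact sensitizer used to raise atopic dermatitis-like lesions, was painted on the skin at 1% for sensitization and at 0.5% for the later challenges. Both MSC treatment groups had the same DNCB course and also received mesenchymal stem cells from human umbilical cord, 2000000 cells at each of 4 injections. Each injection was 100 µL given subcutaneously in the scMSC group, while in the scivMSC group 50 µL was given subcutaneously and 50 µL through a tail vein. Untreated DNCB skin was thus the reference for both routes, and no group received MSCs without DNCB.

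Itch is raised in skin by a conversation between keratinocytes, immune cells and sensory nerve endings. Thymic stromal lymphopoietin (Tslp) is released by keratinocytes and acts through its own receptor chain, Crlf2, paired with the IL-7 receptor chain Il7r. Oncostatin M (Osm), a cytokine of the IL-6 family made mainly by myeloid cells and T cells, acts on keratinocytes, fibroblasts and sensory neurons through Osmr paired with gp130 (Il6st), and Osmr is also shared with the IL-31 receptor Il31ra. Lifr is the chain used with gp130 by leukemia inhibitory factor, Artn encodes artemin, which sustains a class of sensory neurons through Gfra3 and Ret, F2rl1 encodes the protease-activated receptor PAR2, and Trpv3 and Trpv4 encode ion channels of keratinocytes opened by warmth and, for Trpv4, by osmotic stress.

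On GRCm38 the ligand genes Osm and Artn lie at chr11:4236420-4241026 and chr4:117926162-117929763. The receptor genes Crlf2 (chr5:109554709-109558993) and Osmr (chr15:6813577-6874969) are on the minus strand, and Lifr (chr15:7090614-7197489) follows Osmr on the plus strand of the same chromosome. F2rl1 lies at chr13:95511732-95525227, Trpv3 at chr11:73267388-73300363 and Trpv4 at chr5:114622152-114658421. All 9 are protein-coding, and values are for the whole gene, with transcripts not separated.

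Promoter sequences are shown for Osmr, Trpv3, Artn and Crlf2, since these are the genes besides Osm whose 3 DNCB libraries all lay above the 3 control libraries. They are from RefSeq on GRCm38.p6, and each line runs 5′ to 3′ from 250 bases before the start site to its base 20. The motif search below covered 7 start sites of 6 of the 9 genes. A gene left out of it may still have a start site in RefSeq. The lines cover chr15:6874294-6874563 on the minus strand for Osmr, chr11:73267270-73267539 on the plus strand for Trpv3, chr4:117929744-117930013 on the minus strand for Artn and chr5:109558974-109559243 on the minus strand for Crlf2. Capitals mark a match to the AP-1 motif TGANTCA on either strand.
Osmr: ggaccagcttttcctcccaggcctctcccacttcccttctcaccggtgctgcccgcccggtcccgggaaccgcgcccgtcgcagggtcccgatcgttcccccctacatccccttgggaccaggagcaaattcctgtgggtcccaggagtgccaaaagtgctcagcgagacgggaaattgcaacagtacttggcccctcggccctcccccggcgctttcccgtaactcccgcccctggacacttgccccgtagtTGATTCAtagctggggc
Trpv3: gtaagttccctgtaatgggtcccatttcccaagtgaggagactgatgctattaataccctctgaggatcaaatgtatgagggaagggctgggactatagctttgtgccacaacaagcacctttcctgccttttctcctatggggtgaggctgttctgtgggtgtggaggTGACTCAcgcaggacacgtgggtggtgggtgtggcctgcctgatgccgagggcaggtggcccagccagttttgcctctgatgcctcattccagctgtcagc
Artn: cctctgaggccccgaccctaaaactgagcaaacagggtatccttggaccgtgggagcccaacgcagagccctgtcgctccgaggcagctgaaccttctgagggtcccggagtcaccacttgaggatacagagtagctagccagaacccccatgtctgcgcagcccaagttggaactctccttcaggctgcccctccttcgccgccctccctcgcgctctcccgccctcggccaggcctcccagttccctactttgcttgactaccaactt
Crlf2: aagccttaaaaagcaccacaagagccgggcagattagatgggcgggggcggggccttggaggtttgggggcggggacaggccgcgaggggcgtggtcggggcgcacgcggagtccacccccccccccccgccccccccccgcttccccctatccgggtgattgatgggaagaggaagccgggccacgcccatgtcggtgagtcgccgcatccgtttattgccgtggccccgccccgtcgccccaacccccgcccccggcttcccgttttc
The match of Osmr, TGATTCA, began at base 4 counted from the start site as base 1. That of Trpv3, TGACTCA, began 81 bases before the start site. No AP-1 match was found in the 300-base windows of Artn, Crlf2, Lifr or Trpv4, nor any match to the STAT motif TTCNNNGAA or the TATA box TATAAA in the windows of the 6 genes. Over 32807 mouse promoters of 300 bases, 7.82% held the AP-1 motif, 8.29% the STAT motif and 13.6% the TATA box, all searched on both strands. These matches are letters in a sequence and no binding was measured.

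Each gene is described by a level and a difference. A level is given in FPKM, fragments scaled by transcript length and by library size, which is comparable between genes because it is per length. A difference is a log2 fold change fitted by the quasi-likelihood test of edgeR to the estimated counts of all 12 libraries, with its standard error (SE) and a p-value adjusted over the 21890 genes by the Benjamini-Hochberg method, and a gene passed at an adjusted p under 0.05. The libraries held 63877153 to 75134001 estimated counts. The basal keratinocyte list, which includes Krt5 and Krt14, summed to 1691 to 2608 FPKM in control and 8058 to 10296 FPKM in DNCB. It summed to 1561 to 2159 FPKM in scMSC and 2462 to 5267 FPKM in scivMSC. Of its 5 genes, 4 passed as higher in DNCB against control, beside 12.9% of all tested genes, and its part in the results below was not tested. Skeletal muscle genes summed to 11990 to 17514 FPKM in the control libraries against 3238 to 8699 in the other 9, and the part of this difference in the results below was not tested. In whole skin, fewer cells of a type and less RNA per cell cannot be told apart.

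Among the 9 genes, Osm differed most between DNCB skin and the other groups. Its level was 0.611, 0.271 and 0.390 FPKM in the control libraries and 13.9, 8.33 and 6.03 FPKM in the DNCB libraries. In the scMSC libraries it was 0.391, 0.318 and 0.0644 FPKM, and in the scivMSC libraries 0.326, 0.132 and 0.0628 FPKM. All 3 DNCB libraries were high and all 9 others were low, with no overlap, so Osm went from eighth of the 9 genes by mean level in control skin to the first in DNCB skin (9.42 ± 4.05 FPKM, SD, n = 3) and to the last in both MSC treatment groups. The fitted difference was a log2 fold change of 4.27 ± 0.70 (SE) in DNCB against control (adjusted p = 0.00195, edgeR), 5.14 ± 0.73 against scMSC (adjusted p = 0.00239) and 5.72 ± 0.75 against scivMSC (adjusted p = 0.00409). These correspond to 19.3-fold, 35.2-fold and 52.7-fold. The low end rests on few molecules, where about 4 estimated counts were taken as 1 sequenced fragment. Osm had 12 to 102 estimated counts in the 9 libraries outside the DNCB group against 1113 to 2369 inside it. The MSC treatment groups were below control by 0.87 ± 0.64 (scMSC) and 1.45 ± 0.66 (scivMSC) on the log2 scale, and neither passed the test (adjusted p = 0.390 and 0.177, edgeR).

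Of the 9 genes, Osm alone passed in DNCB against control, where 25.3% of all tested genes passed. In DNCB against scMSC, 1 of the 9 was higher and 2 were lower, beside 12.7% of all genes passing (5.77% higher, 6.95% lower). In DNCB against scivMSC, 1 was higher and 1 lower, beside 8.16% (3.6% higher, 4.56% lower). The median log2 fold change of the 9 genes was 0.21, 0.49 and 0.12 in these comparisons, against 0.02, -0.02 and -0.02 over all tested genes. The 3 comparisons share the DNCB libraries.

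**Figure D1:**
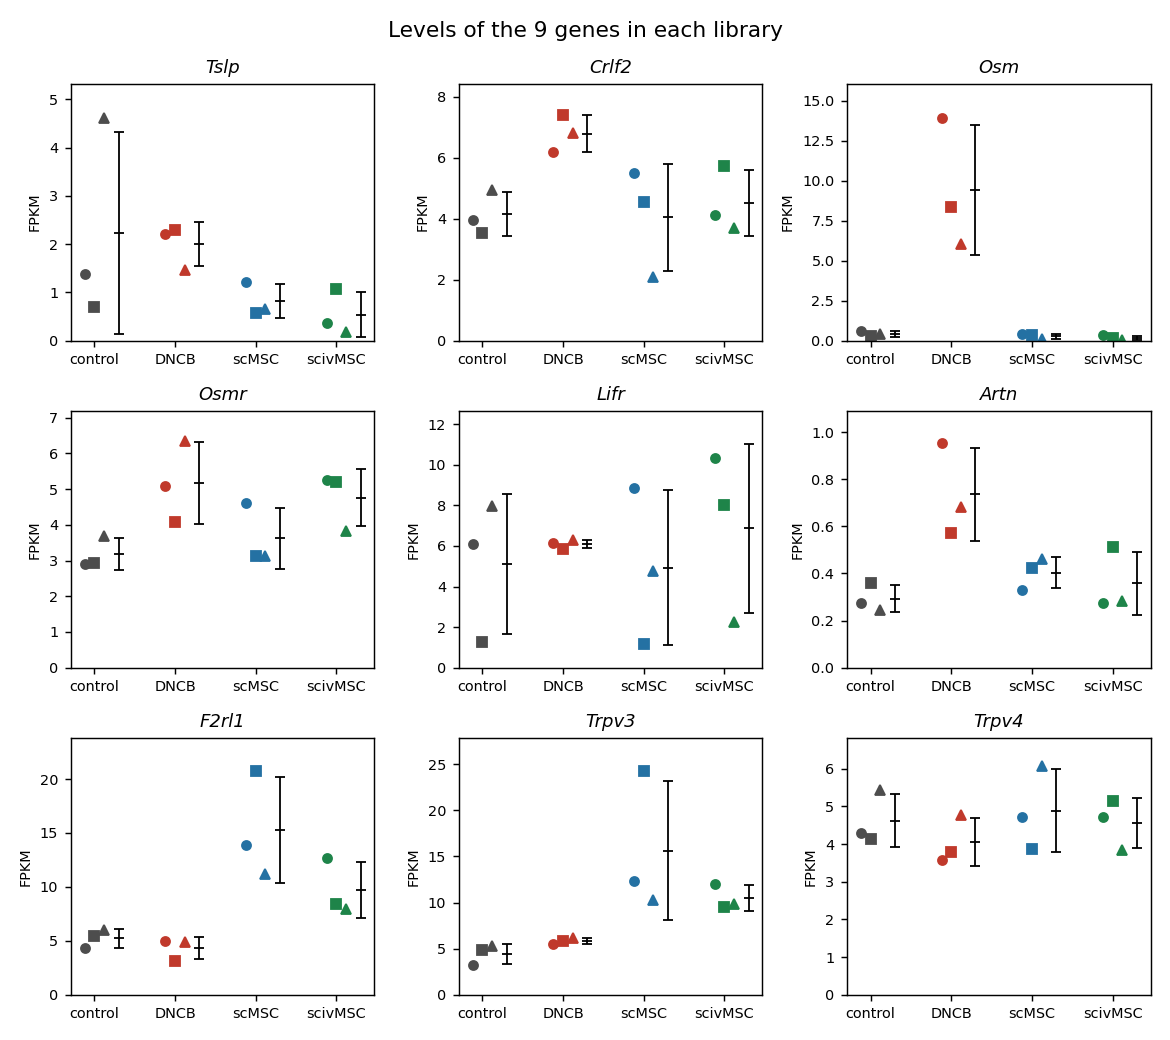
FPKM (linear axis from 0) of the 9 genes in each library, by group, with circles, squares and triangles for replicates 1, 2 and 3 and a bar for the group mean and SD (n = 3). Osm was high in the 3 DNCB libraries alone, while F2rl1 and Trpv3 were higher in all 6 libraries of the MSC treatment groups than in any control or DNCB library.

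Markers of other cell types moved with Osm. A list of 8 neutrophil genes summed to 2504 to 3453 FPKM in the DNCB libraries, 121 to 208 FPKM in control, 16.5 to 66.2 FPKM in scMSC and 35.6 to 180 FPKM in scivMSC. Of these, 8 of 8 passed as higher in DNCB against each other group. Of all tested genes, 12.9% were higher in DNCB than in control, 5.77% than in scMSC and 3.6% than in scivMSC. Ly6g, the surface marker that defines mouse neutrophils, was at 0 counts in all 9 libraries outside the DNCB group. S100a8 and S100a9 made up most of the sum and are also made by stressed keratinocytes. A list of 8 macrophage and monocyte genes summed to 663 to 714 FPKM in DNCB and to 184, 197 and 710 FPKM in control, which overlapped. It summed to 150 to 358 FPKM in scMSC and 44.4 to 374 FPKM in scivMSC, both below every DNCB library. Of these 8 genes, 0 passed in DNCB against control, 1 against scMSC and 0 against scivMSC. The sum of the fibroblast list also set DNCB apart, at 1916 to 2233 FPKM against at most 946 FPKM in any other library. So did that of the stress keratinocyte list, at 7079 to 8807 FPKM against at most 4581 FPKM. Of 6 fibroblast genes, 4 passed as higher in DNCB against control, 3 against scMSC and 0 against scivMSC. Of 4 stress keratinocyte genes, 4, 3 and 0 passed as higher in these comparisons. The T cell list, at 3.50 to 4.08 FPKM in DNCB, overlapped control, at 2.38 to 5.15 FPKM. The part of any of these cell types in the level of Osm, neutrophils, macrophages and monocytes included, was not tested. By pattern over the 12 libraries, the genes most like Osm were Fpr2 (Pearson r = 0.979) and Fpr1 (r = 0.967), both formyl peptide receptors of phagocytes, and Spp1 (r = 0.958), which encodes osteopontin. Such r values are descriptions over 12 libraries that share 4 groups, and a contrast between groups alone can give them.

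The receptor chains of oncostatin M moved far less than the cytokine. Osmr was at 2.90, 2.94 and 3.70 FPKM in control, 5.09, 4.07 and 6.36 in DNCB, 4.62, 3.13 and 3.14 in scMSC and 5.25, 5.21 and 3.83 in scivMSC. Its DNCB libraries were all above control but overlapped both MSC treatment groups, and the scivMSC libraries were also all above control. The log2 fold change was 0.52 ± 0.19 in DNCB against control (adjusted p = 0.0640, edgeR), 0.49 ± 0.19 against scMSC (adjusted p = 0.118) and 0.12 ± 0.19 against scivMSC (adjusted p = 0.786), so no comparison passed. Osmr passed against control in 2 of 12 fits that left out a library, without DNCB replicate 2 (0.66, adjusted p = 0.0371) and without scMSC replicate 1 (0.52, adjusted p = 0.0439). It also passed in 4 of 11 other settings, with library size alone (0.70, adjusted p = 0.0319) and with limma at 3 pseudocounts (0.55 to 0.69, adjusted p = 0.0400 to 0.0418), and over all alternatives adjusted p ran from 0.0319 to 0.234. Library size alone moved the median of all genes to 0.20 in this comparison, and limma moved it to 0.10 to 0.23. Against scMSC it passed without scMSC replicate 1 (0.67, adjusted p = 0.0451).

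Lifr was at 6.14, 5.87 and 6.29 FPKM in DNCB, with less spread relative to the mean (SD 0.210 FPKM) than any other of the 9 genes in DNCB. In each other group 1 library was low: it was at 6.09, 1.27 and 7.97 FPKM in control, 8.83, 1.18 and 4.78 in scMSC and 10.3, 8.01 and 2.26 in scivMSC. With an SE of 0.72 to 0.73 on the log2 scale, no comparison passed, and the data cannot show differences of the size seen for Osmr. Gp130 itself (Il6st) was the most abundant chain, at 12.6 to 28.2 FPKM over the 12 libraries, and passed in 0 of 6 comparisons. The log2 ratio of Osmr to Lifr FPKM was -0.26 ± 0.27 (SD, n = 3) in DNCB and -0.32 ± 1.33 in control. It was -0.05 ± 1.27 with the scMSC route and -0.28 ± 0.92 with the scivMSC route, so the groups' means lay within their spread. No test of this ratio could pass, since 0.1 is the smallest exact permutation p that 3 against 3 allows.

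Il31ra, which pairs with Osmr to form the IL-31 receptor, went the other way. It was at 3.58, 1.49 and 4.33 FPKM in control and 0.350, 0.139 and 0.479 FPKM in DNCB, with no overlap, and its log2 fold change was -3.44 ± 0.78 (adjusted p = 0.00879, edgeR). In scMSC it was at 2.33, 0.532 and 0.366 FPKM, which overlapped DNCB, and in scivMSC between 1.22 and 3.48 FPKM, which did not. Neither difference from DNCB passed (-1.73 ± 0.73, adjusted p = 0.164, and -2.63 ± 0.75, adjusted p = 0.0579). In DNCB skin Osmr, the other chain of the IL-31 receptor, was therefore at 5.17 ± 1.15 FPKM beside 0.323 ± 0.172 FPKM of Il31ra. In control the levels of Osmr and Il31ra were 3.18 ± 0.451 and 3.13 ± 1.47 FPKM.

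**Figure D2:**
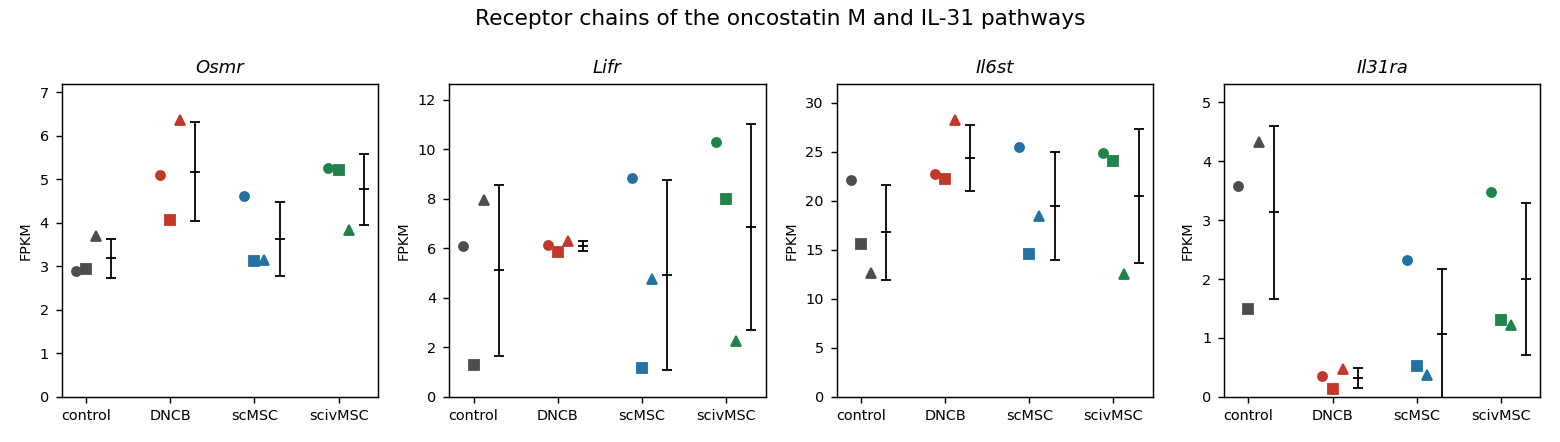
FPKM (linear axis from 0) of Osmr, Lifr, Il6st and Il31ra in each library, with circles, squares and triangles for replicates 1, 2 and 3 and a bar for the mean and SD (n = 3), cut at 0 for Il31ra in scMSC. Il31ra was at 0.139 to 0.479 FPKM in the DNCB libraries, below every control library and overlapping scMSC, and Lifr had 1 low library in each group other than DNCB.

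The rest of the gp130 pathway was read from lists of its ligands, receptors and downstream genes. Of 7 tested gp130 cytokines, 3 were higher and 0 lower in DNCB against control: Osm, Clcf1 at 1.99 ± 0.45 (adjusted p = 0.00926, edgeR), which encodes a cytokine that acts through the Cntf receptor, and Il11 at 1.60 ± 0.47 (adjusted p = 0.0299). Of all tested genes, 12.9% were higher and 12.4% lower in DNCB than in control. Lif did not pass (-0.13 ± 0.43, adjusted p = 0.866, edgeR). Il31, which encodes the ligand of the IL-31 receptor, was not among the 36400 genes. Il6 was at no more than 8 estimated counts in any library of the MSC treatment groups, at or under the floor of 3 fragments, against 65 to 234 in the DNCB libraries. Of 7 receptors, Cntfr was higher in DNCB than in control (1.67 ± 0.35, adjusted p = 0.00648) and Il31ra lower. Against the MSC treatment groups no receptor passed (edgeR), with 2 of 7 at an unadjusted p under 0.05 against scMSC and 2 of 7 against scivMSC.

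The JAK-STAT3 response is the route by which gp130 receptors signal. Of 9 genes tested, 3 were higher and 0 lower in DNCB against control, near the 25.3% of all genes that passed there: Bcl3 at 1.66 ± 0.34 (adjusted p = 0.00520, edgeR), Socs3, the feedback inhibitor of this route, at 1.43 ± 0.33 (adjusted p = 0.00948), and Stat3 at 0.57 ± 0.14 (adjusted p = 0.0144). In DNCB against scMSC 5 of 9 passed as higher, and against scivMSC 4 of 9, with 0 passing as lower in both. Of all genes, 12.7% (5.77% higher, 6.95% lower) and 8.16% (3.6% higher, 4.56% lower) passed. Pim1 and Cish went the other way without passing. Their DNCB libraries all lay below every library of both MSC treatment groups in FPKM, as for 16% and 16.4% of all tested genes. Socs3 was at 29.4 to 55.5 FPKM in the DNCB libraries, above all 9 others, which ran from 5.22 to 16.5 FPKM. The median log2 fold change of the 9 genes was 0.35, 0.70 and 0.59 in the 3 comparisons.

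Tslp did not pass in any comparison with edgeR on all libraries. Its level was 1.38, 0.689 and 4.62 FPKM in control and 2.21, 2.30 and 1.47 FPKM in DNCB. In scMSC it was 1.22, 0.578 and 0.652 FPKM, and in scivMSC 0.365, 1.06 and 0.187 FPKM. The DNCB libraries lay above all 6 libraries of the MSC treatment groups. The control libraries ran from 0.689 to 4.62 FPKM, below and above the DNCB libraries, with replicate 3 the highest of all 12. They overlapped both MSC treatment groups, but the scMSC libraries at 0.578 and 0.652 FPKM lay below every control library. So did the scivMSC libraries at 0.365 and 0.187 FPKM. In DNCB the log2 fold change relative to control was -0.30 ± 0.69, relative to scMSC 1.27 ± 0.70 and relative to scivMSC 1.90 ± 0.72, and none passed (adjusted p = 0.802, 0.299 and 0.140, edgeR). With DESeq2 the difference from scivMSC passed (1.92, adjusted p = 0.0410). Tslp in scivMSC against control was at -2.20 ± 0.72 (adjusted p = 0.0716, edgeR), and it passed there with DESeq2 (-2.24, adjusted p = 0.00988), without control replicate 2 (-2.65, adjusted p = 0.0430) and without scivMSC replicate 2 (-3.10, adjusted p = 0.0469). Without control replicate 3 DNCB against control was 0.69 (adjusted p = 0.503) and scivMSC against control -1.20. The same library also stood out in the macrophage and monocyte list, at 710 FPKM against 184 and 197 FPKM in the other control libraries, and the part of this in its Tslp level was not tested. Tslp (chromosome 18, 32815383 to 32819797, plus strand) overlaps 4930455D15Rik on the other strand, and since the sources used here do not state whether counting used strand, reads of the overlapping genes may not be told apart.

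Crlf2, the specific chain of the TSLP receptor, was at 3.94, 3.54 and 4.94 FPKM in control and 6.17, 7.38 and 6.81 FPKM in DNCB. In scMSC it was at 5.49, 4.55 and 2.10 FPKM, and in scivMSC at 4.11, 5.74 and 3.71 FPKM. All 3 DNCB libraries lay above the 9 others, yet no difference passed: the log2 fold change was 0.53 ± 0.31 against control (adjusted p = 0.243, edgeR), 0.72 ± 0.31 against scMSC (adjusted p = 0.176) and 0.58 ± 0.31 against scivMSC (adjusted p = 0.306). The FPKM of the DNCB and control libraries did not overlap for 5 of the 9 genes, all higher in DNCB, beside 47.7% of all tested genes (31.7% higher in DNCB, 16.1% lower). For both DNCB against scMSC and DNCB against scivMSC this held for 6 of 9, the 4 genes Tslp, Crlf2, Osm and Artn above and F2rl1 and Trpv3 below, beside 33.1% of all genes (17.1% above, 16% below) and 32.7% (16.3% above, 16.4% below). Il7r, the partner of Crlf2, did not pass in any comparison and was at 0.257 to 1.51 FPKM.

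Among 8 tested genes of the TSLP and alarmin list, 2 were higher and 2 lower in DNCB against control. The shares over all tested genes were 12.9% higher and 12.4% lower. Il33, an alarmin of keratinocytes and stromal cells that is kept in the nucleus until release, was at 35.6 ± 6.73 FPKM in DNCB and 6.03 ± 0.420 FPKM in control, and its receptor Il1rl1 had a log2 fold change of 3.27 ± 0.64 (adjusted p = 0.00456, edgeR). The TSLP signal transducers Stat5a and Stat5b were lower in DNCB than in control, at -0.69 ± 0.14 (adjusted p = 0.00515) and -0.74 ± 0.18 (adjusted p = 0.0126). Against either MSC treatment group 1 of the 8 genes was higher in DNCB and 0 lower. Over all genes, 5.77% were higher and 6.95% lower against scMSC, and 3.6% and 4.56% against scivMSC.

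F2rl1 and Trpv3 differed from Osm in that the MSC treatment groups, rather than DNCB skin, stood apart. F2rl1 was at 4.30, 5.44 and 5.98 FPKM in control and 4.97, 3.13 and 4.87 FPKM in DNCB, which overlapped. It was at 13.9, 20.8 and 11.2 FPKM in scMSC and 12.7, 8.44 and 7.97 FPKM in scivMSC, all above the 6 libraries without MSCs. DNCB was lower by a log2 fold change of -1.86 ± 0.29 against scMSC (adjusted p = 0.00310, edgeR) and -1.17 ± 0.28 against scivMSC (adjusted p = 0.0304), while scMSC was higher than control by 1.40 ± 0.28 (adjusted p = 0.00742). ScivMSC against control did not pass (0.71 ± 0.28, adjusted p = 0.126), nor did DNCB against control (-0.46 ± 0.28, adjusted p = 0.261). The difference from scivMSC lost its call in 5 of the 12 fits that left out a library, namely any of the 3 DNCB libraries, scivMSC replicate 1 and scivMSC replicate 3, with adjusted p from 0.0570 to 0.114.

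Trpv3 was at 3.24, 4.84 and 5.29 FPKM in control and 5.49, 5.87 and 6.20 FPKM in DNCB. It was at 12.3, 24.3 and 10.3 FPKM in scMSC and 12.1, 9.51 and 9.89 FPKM in scivMSC. The 6 libraries of the MSC treatment groups were all above the 6 others, and the DNCB libraries were all slightly above control. DNCB was lower than scMSC by a log2 fold change of -1.46 ± 0.31 (adjusted p = 0.0119, edgeR), and scMSC was higher than control by 1.68 ± 0.31 (adjusted p = 0.00516). The difference from scivMSC did not pass (-0.85 ± 0.31, adjusted p = 0.122), and neither did DNCB against control (0.21 ± 0.31, adjusted p = 0.665). ScivMSC was higher than control by 1.06 ± 0.31 with adjusted p = 0.0450, close to the threshold, and this call was lost in 9 of 12 fits that left out a library. In scMSC against control 2 of the 9 genes passed, both higher, beside 18.5% of all genes (10.4% higher, 8.12% lower), and in scivMSC against control 1 of 9, beside 13.2% (7.11% higher, 6.13% lower). Their FPKM did not overlap control for these 2 genes in scMSC, both above, beside 37.6% of all genes (25.9% above, 11.7% below), and for 3 genes in scivMSC, F2rl1, Trpv3 and Osmr, all above, beside 34.5% (24.3% above, 10.3% below).

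A single library, scMSC replicate 2, held the highest level of both genes. Without it the log2 fold change of DNCB against scMSC was -1.50 for F2rl1 (adjusted p = 0.0107, edgeR) and -0.91 for Trpv3 (adjusted p = 0.0211), and scMSC against control was 1.00 for F2rl1 (adjusted p = 0.0348) and 1.09 for Trpv3 (adjusted p = 0.00849). Trpv3 in DNCB against scMSC stood at adjusted p = 0.0504 without DNCB replicate 1. The FPKM of the scMSC and scivMSC libraries overlapped for all 9 genes, and no gene of the 9 passed between the routes (edgeR, 1 of 9 at an unadjusted p under 0.05, F2rl1, and 0 of 9 with DESeq2), beside 0.00457% of all genes passing and 10.8% with no overlap.

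Hair follicle genes moved with F2rl1 and Trpv3. A list of 8 genes of the hair shaft and inner root sheath summed to 4.23 to 281 FPKM in control, 278 to 871 FPKM in DNCB, 6203 to 17618 FPKM in scMSC and 2306 to 5715 FPKM in scivMSC. Of the 8, 5 were lower in DNCB than in scMSC and 4 lower than in scivMSC, beside 6.95% and 4.56% of all tested genes. In scMSC 8 of 8 and in scivMSC 6 of 8 were higher than in control, beside 10.4% and 7.11% of all genes. ScMSC replicate 2 was highest for the list as well as for both genes. The genes nearest to F2rl1 by pattern were Krtap3-2 (r = 0.983), which encodes a keratin-associated protein of the hair shaft, Pard6b (r = 0.981) and Cldn1 (r = 0.973), a tight junction protein, and those nearest to Trpv3 were Mab21l4 (r = 0.978), Tent5b (r = 0.971) and Map7 (r = 0.970), each over 12 libraries. The sum of the suprabasal keratinocyte list overlapped in all groups, from 3679 to 10590 FPKM. Its genes differed: Ivl, Lor and Flg were lower in every DNCB library than in any library of the MSC treatment groups. Such a separation was found for 16% of all genes against scMSC and 16.4% against scivMSC. Krt1, Krt10 and Dsg1a overlapped. Of the 6 genes, 1 passed as lower in DNCB against scMSC and 1 against scivMSC. The part of hair follicle or suprabasal keratinocyte genes or cells in the levels of F2rl1 and Trpv3 was not tested.

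**Figure D3:**
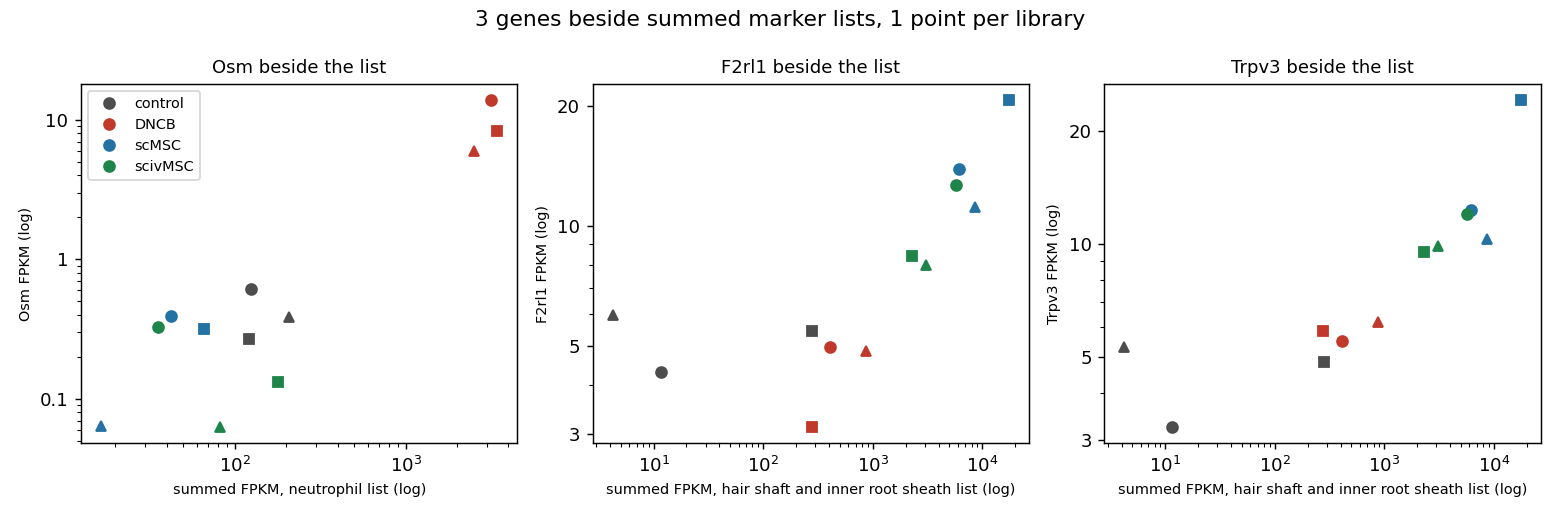
Level of Osm beside the summed neutrophil list, and of F2rl1 and Trpv3 beside the summed hair shaft and inner root sheath list (FPKM, both axes log), 1 point per library, coloured by group, with circles, squares and triangles for replicates 1, 2 and 3. The DNCB libraries stand alone at 2504 to 3453 FPKM of neutrophil genes, and the 6 libraries of the MSC treatment groups at 2306 FPKM or more of hair genes.

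**Figure D4:**
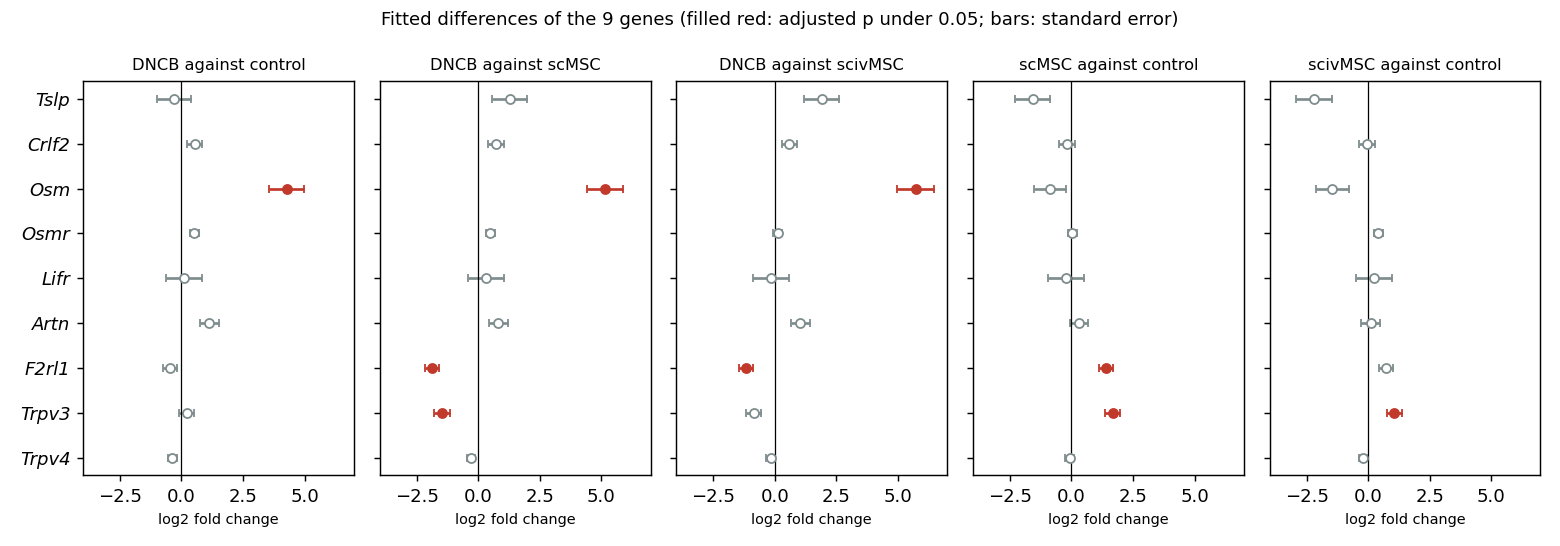
Log2 fold changes of the 9 genes (first group relative to the second) in 5 comparisons, with bars for the SE and filled red points for an adjusted p under 0.05 (edgeR). Osm passed in the 3 comparisons with DNCB as the first group, and F2rl1 and Trpv3 are the other genes that passed.

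Of 13 tested genes of the protease-activated receptor list, 2 were higher and 1 lower in DNCB against control, close to the 25.3% of all genes that passed there: F2r, which encodes the thrombin receptor PAR1, at 1.69 ± 0.31 (adjusted p = 0.00340, edgeR), Klk6, a kallikrein protease, at 2.78 ± 0.58 (adjusted p = 0.00579), and the protease inhibitor Spink5 at -0.88 ± 0.25 (adjusted p = 0.0244). F2r was thus higher in DNCB skin, at 11.3 to 15.9 FPKM against 3.69 to 4.15 FPKM in control, where F2rl1 did not pass. In DNCB against scMSC 4 of 13 were higher and 3 lower, and against scivMSC 1 was higher and 2 lower. Of all genes, 12.7% passed against scMSC and 8.16% against scivMSC. St14, which encodes the membrane protease matriptase and was picked because its values resemble those of F2rl1, was at 38.5 ± 12.3 FPKM in scMSC and 24.8 ± 5.63 FPKM in scivMSC against 10.3 ± 1.13 FPKM in DNCB and 10.2 ± 2.24 FPKM in control, which is given as a description with no test.

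Trpv4 was steady. It was at 4.28, 4.14 and 5.43 FPKM in control, 3.57, 3.80 and 4.78 in DNCB, 4.73, 3.87 and 6.06 in scMSC and 4.71, 5.13 and 3.84 in scivMSC, and every pair of groups overlapped. Its log2 fold change in DNCB was -0.37 ± 0.18 against control (adjusted p = 0.156, edgeR), -0.29 ± 0.18 against scMSC (adjusted p = 0.354) and -0.17 ± 0.18 against scivMSC (adjusted p = 0.629). Of 9 tested TRP channels, Trpv2 at 1.20 ± 0.26 (adjusted p = 0.00732) and Trpc6 at 2.73 ± 0.89 (adjusted p = 0.0445) were higher in DNCB than in control and Trpm4 at -0.67 ± 0.15 (adjusted p = 0.00925) lower. Of all tested genes, 12.9% were higher and 12.4% lower in that comparison. Trpa1 and Trpm8, channels of sensory neurons, were too low in skin to be tested.

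Artn was the lowest of the 9 genes in control and DNCB skin, at 0.274, 0.359 and 0.247 FPKM in control and 0.955, 0.571 and 0.681 FPKM in DNCB. In scMSC it was at 0.329, 0.423 and 0.460 FPKM, and in scivMSC at 0.277, 0.513 and 0.284 FPKM. The 3 DNCB libraries were above all 9 others, but they held only 115 to 173 estimated counts and the others 42 to 102. The log2 fold change was 1.13 ± 0.38 against control, just short of the threshold (adjusted p = 0.0516, edgeR), 0.82 ± 0.38 against scMSC (adjusted p = 0.203) and 1.03 ± 0.38 against scivMSC (adjusted p = 0.129). It passed against control with DESeq2 (1.11, adjusted p = 0.0149), and over all alternatives its adjusted p ran from 0.0143 to 0.174.

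Of the receptors of artemin, Gfra3 did not pass in any comparison, with 0.500 to 3.11 FPKM. Ret was at 0.873, 0.620 and 0.650 FPKM in control, 1.31, 1.64 and 2.81 in DNCB, 3.53, 4.58 and 2.36 in scMSC and 3.58, 3.12 and 1.24 in scivMSC, so control lay below every other library. It was higher than control by a log2 fold change of 1.24 ± 0.41 in DNCB (adjusted p = 0.0473, edgeR), 2.14 ± 0.42 in scMSC (adjusted p = 0.00629) and 1.69 ± 0.41 in scivMSC (adjusted p = 0.0229). Of 12 tested neurotrophic genes, 3 were higher and 1 lower in DNCB against control, beside 12.9% of all genes higher and 12.4% lower. With the smallest adjusted p, Nrtn, which encodes neurturin, was lower (-1.95 ± 0.30, adjusted p = 0.00146), and Sema3a, which repels nerve fibres (1.48 ± 0.42, adjusted p = 0.0239), and Gfra1 (1.70 ± 0.48, adjusted p = 0.0254) were higher.

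Among 14 other itch mediators and receptors tested, 5 were higher and 0 lower in DNCB against control, led by Hdc, the enzyme that makes histamine (4.08 ± 0.61, adjusted p = 0.00137, edgeR), the endothelin receptor Ednra (1.48 ± 0.22, adjusted p = 0.00140) and the opioid precursor Penk (2.38 ± 0.38, adjusted p = 0.00168). Against scMSC 3 were higher and 1 lower in DNCB, and against scivMSC 1 was higher and 1 lower. Over all genes, 12.9% were higher and 12.4% lower in DNCB than in control, and 12.7% and 8.16% passed against scMSC and scivMSC. The mast cell list, beside which Hdc is read since mast cells store histamine, summed to 91.8 to 109 FPKM in DNCB and 22.3 to 37.2 FPKM in control, and its part in Hdc was not tested. It summed to 52.6 to 116 FPKM in scMSC and 18.6 to 110 FPKM in scivMSC, which overlapped DNCB, while Hdc was at 12.5 to 20.3 FPKM in DNCB and at most 3.46 FPKM in any other library.

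**Figure D5:**
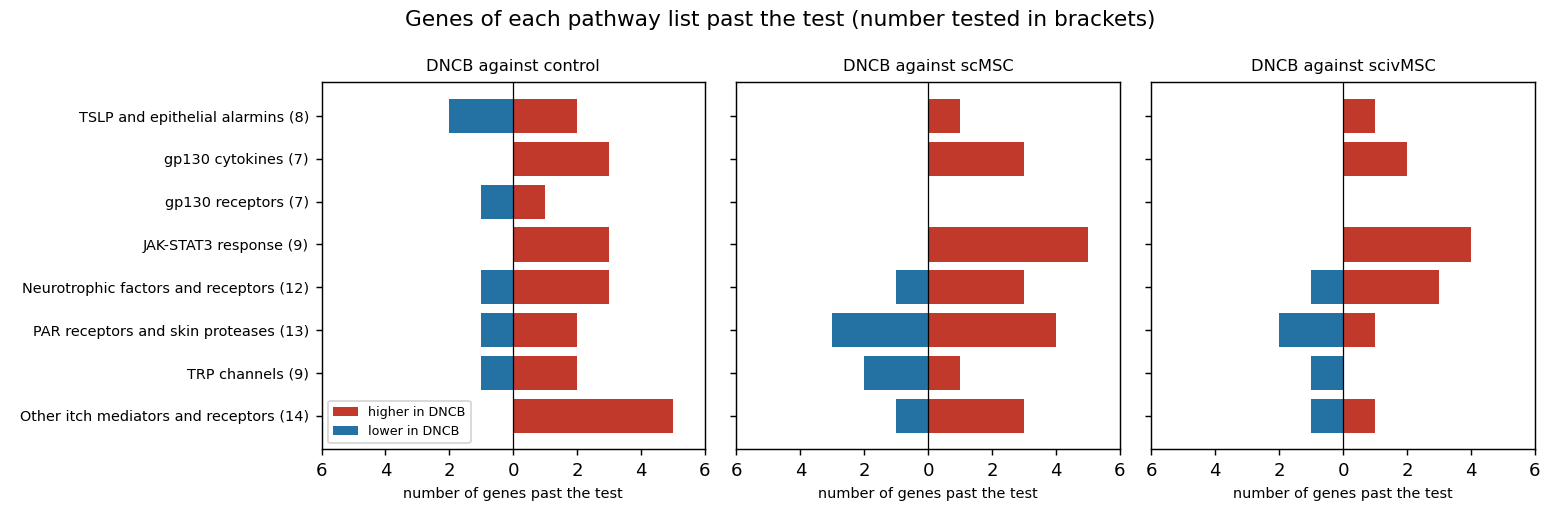
Number of genes of each of 8 pathway lists that passed as higher (right, red) or lower (left, blue) in DNCB against control, scMSC and scivMSC, with the number tested in brackets. The JAK-STAT3 response and the gp130 cytokines had genes that passed as higher in DNCB and none that passed as lower in all 3 comparisons. Of all tested genes, 25.3% passed against control, 12.7% against scMSC and 8.16% against scivMSC.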

How the data were processed

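Dorsal skin RNA of 12 libraries (4 groups of 3 libraries) was analysed. Total RNA was extracted with Trizol, and the deposited table holds FPKM, which the authors scaled for length and depth, and estimated counts of whole numbers that are not normalized between libraries, with 63877153 to 75134001 in each. Of the estimated counts from 1 to 18, 38.9% to 41.2% were multiples of 4, so 1 fragment was taken as about 4 counts and 3 fragments, or 12 counts, as the floor. This covers counting error only. The submitters' processing notes list Bowtie 0.12.2, HISAT2 2.0, StringTie 1.3.0 and build mm8. Gene positions in the table match GRCm38, since 36248 of 36400 genes overlapped their GENCODE M21 position.

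Testing used edgeR 4.0.16 in R 4.3.3 and required a mean level of 0.1 FPKM or more (TMM normalization, quasi-likelihood test, 1 model of the 4 groups). SEs were derived from the F statistic, and scripts were tested on simulated data. DESeq2 1.42.0, limma 3.58.1 on log2(FPKM + 0.1, 0.01 or 1), scaling, filters, a replicate block and leaving out each library served as alternatives. The members and lists were chosen with earlier results of these data known. The text names all 9 genes, their direct partners, the 3 genes of each list with the smallest adjusted p in DNCB against control, and the 3 genes most like a member by Pearson r of log2(FPKM + 0.1) among genes that averaged 1 FPKM or more. Il33, Il6, St14, Pim1, Cish, Trpa1 and Trpm8 fall outside this rule and were picked with their values known. Marker genes of cell types are named beside the results they touch. The study kept more mice per group than were sequenced, and nothing in the sources used here says which mice, or whether 1 mouse each, gave the libraries, so p-values measure the spread between these samples, which may be technical. Replicate numbers did not pair the libraries. Figures used matplotlib 3.10.9. Il13 was not analysed here.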

Additional observations from a re-analysis of the deposited data

How the results depend on the processing

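Each of the 54 pairs of gene and comparison was recomputed under up to 23 settings, 12 of which left out a library. Of 1236 values, 1155 kept their direction and their side of the threshold, 19 lost the call, 24 gained it and 38 changed sign. Osm was past the test with the same sign in all settings for DNCB against control, scMSC and scivMSC, and F2rl1 and Trpv3 in scMSC against control did so too. The cause of each change below was not tested.

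The number of the 9 genes past the test in DNCB against control, 1 as reported, was 3 with library size alone and with limma at each pseudocount, 2 with DESeq2 and with counts divided by 4, and 1 to 2 without single libraries. Library size alone moved the median log2 fold change of all genes to 0.20 in DNCB, 0.16 in scMSC and 0.21 in scivMSC against control. In DNCB against scivMSC, 2 as reported, the number was 4 with DESeq2, 1 with the replicate block, where F2rl1 had adjusted p = 0.0669, and 1 to 3 without single libraries. In scivMSC against control, 1 as reported, it was 0 with the DESeq2 size factors and without a filter, 2 with library size alone, DESeq2 and limma at 0.1, and 0 to 1 without single libraries. With the block, Trpv3 in scivMSC against control also lost its call (adjusted p = 0.0530) and Osm there gained it (-1.65, adjusted p = 0.0482), and the other calls held. Same-numbered libraries deviated together with correlations from -0.21 to 0.149.

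Counts over all genes moved as well. In DNCB against scivMSC the count went from 1787 to 3215 with DESeq2, 1179 with the block and 558 to 1982 without single libraries. They fell from 2786 to as few as 1541 in DNCB against scMSC without 1 library. They were 3098 of 5541 in DNCB against control, 2040 of 4049 in scMSC against control and 1500 of 2899 in scivMSC against control with a log2 fold change over 1 as well. With 6 libraries alone they were 2131 and 1103 in the last pair, and without single libraries 2317 to 4303 and 1339 to 3079. Between the MSC routes the count of 1 became 138 with DESeq2, 3 with 6 libraries and 1 to 5 without single libraries.

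Signs turned for genes that did not pass. Tslp in DNCB against control was 0.22, 0.25 and 0.0714 with limma and -0.76 to 0.69 without single libraries. Lifr in DNCB against scivMSC was 0.0860, 0.0932 and 0.0357 with limma at 0.1, 0.01 and 1. Osmr in scMSC against control was -0.00945 without a filter. Trpv4 there was 0.0805 with library size alone and 0.0662, 0.0673 and 0.0575 with limma. Crlf2 in scivMSC against control was 0.13 with library size alone and 0.11, 0.11 and 0.0947 with limma. Without single libraries the values ran as follows. Lifr was at -0.40 to 0.47 (DNCB against control), -0.12 to 1.01 (DNCB against scMSC), -0.57 to 0.26 (DNCB against scivMSC), -0.92 to 0.17 (scMSC against control) and -0.24 to 0.63 (scivMSC against control). Crlf2 was at -0.42 to 0.13 in scMSC against control, -0.23 to 0.0240 in scivMSC against control and -0.37 to 0.18 between the MSC routes. Osmr was at -0.0541 to 0.26 in DNCB against scivMSC and -0.15 to 0.13 in scMSC against control. Artn was at -0.22 to 0.26 in scivMSC against control, and Trpv4 at -0.0573 to 0.20 between the MSC routes.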
